A study of Mus musculus with 6 samples.

Results

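The genes described here are 10 angiogenic growth factor and hypoxia-inducible factor (HIF) genes, chosen by name from the gene_name column of the count table, 10 of the 54532 genes listed. They are the vascular endothelial growth factor (VEGF) genes Vegfa, Vegfb, Vegfc and Pgf, the angiopoietin genes Angpt1 and Angpt2, the platelet-derived growth factor (PDGF) genes Pdgfa and Pdgfb, and the HIF genes Hif1a and Epas1. The rule itself is a list of names and uses no measured value. RNA-seq was made of eWAT, white fat taken from around the epididymis, from male C57BL/6 mice aged 6 to 10 weeks. The cachexia group, 3 libraries, came from mice given cells of the mouse lung cancer line LLC (Lewis lung carcinoma) under the skin. A mouse was called cachectic once it had lost more than 20% of its body weight, and tissue was taken on day 21. The control group, 3 libraries, is labelled only as control, and tumor burden cannot be told apart from cachexia in this design. Nothing in the labels says that each library came from a mouse of its own, so the p-values measure only the spread between these libraries, which may be technical.

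VEGF ligands act on receptor tyrosine kinases of endothelial cells, where VEGFA is the main driver of vessel growth, VEGFC mainly drives lymphatic vessels, and VEGFB and PGF bind the receptor FLT1. ANGPT1 activates the endothelial receptor TEK (also called TIE2) and keeps vessels stable, while ANGPT2 is released by endothelial cells and can oppose it. PDGFB from endothelium recruits pericytes through PDGFRB, PDGFA acts on fibroblasts and adipocyte progenitors through PDGFRA, and HIF1A and EPAS1 (HIF-2α) are the oxygen-regulated subunits of the factors that drive VEGFA in hypoxia. HIF1A and EPAS1 are regulated mostly through protein stability, which RNA does not show. Adipose tissue is richly supplied with capillaries, and adipocytes are a known source of VEGFA.

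The total count was between 14928766 and 18855546 per library and was lower in each cachexia library than in each control library. Control replicate 1 stood apart from the other controls on the second principal component of log2 CPM (counts scaled to the TMM-normalized library size), at 47.2 against -28.8 and -23.3, so its part in the results is given. Adipocyte markers checked the labelled tissue, since Cfd (adipsin) and Fabp4 (a fatty acid carrier) had mean levels of 10160 and 7747 CPM in control libraries. The 5 epididymis markers summed to 3.76, 0.69 and 0.91 CPM in control replicates 1, 2 and 3, and to at most 1.225 CPM in cachexia. Their highest sum was thus in control replicate 1, the library that stood apart. Any part of epididymal tissue in its other values was not tested. In bulk tissue, fewer cells of a type and less RNA per cell cannot be told apart.

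The gene coordinates in the files are those of GRCm38, although the labels name mm9. On GRCm38, Vegfa lies at chr17:46016993-46032369, Vegfb at chr19:6982473-6987651, Vegfc at chr8:54077606-54187096 and Pgf at chr12:85166635-85177790. Angpt1 lies at chr15:42424723-42676977, Angpt2 at chr8:18690263-18741562, Pdgfa at chr5:138976014-138997370 and Pdgfb at chr15:79995874-80014977. Hif1a lies at chr12:73901375-73947530 and Epas1 at chr17:86753907-86833410. Vegfc, Hif1a and Epas1 are on the plus strand and the other 7 genes on the minus strand, and all 10 are protein coding. The Pdgfa span overlaps the gene 6330403L08Rik on the other strand, with 1195 counts in all against 1543 for Pdgfa, and the Angpt2 span overlaps Mcph1, likewise on the other strand, with 1626 counts against 2535. The strand setting of the counting is not given in the sources used here, so values of Pdgfa and Angpt2 are uncertain to that extent. The same holds for other genes used below that overlap a gene on the other strand. Among them are the endothelial markers Egfl7 (overlapping Agpat2), Plvap (Gtpbp3) and Eng (Fpgs). The most counted gene overlapping Egfl7 had 34449 counts in all.

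HIF binds DNA at hypoxia response elements with the core ACGTG or GCGTG, so the 250 bases before the RefSeq start of Vegfa, Vegfb and Hif1a (GRCm38.p6) are shown, with matches to either core on either strand in capitals. They set the best known HIF target of the list beside its close relative and beside a HIF gene itself. All are written 5′ to 3′ on the strand of the gene.
Vegfa, chr17:46032378-46032627, minus strand: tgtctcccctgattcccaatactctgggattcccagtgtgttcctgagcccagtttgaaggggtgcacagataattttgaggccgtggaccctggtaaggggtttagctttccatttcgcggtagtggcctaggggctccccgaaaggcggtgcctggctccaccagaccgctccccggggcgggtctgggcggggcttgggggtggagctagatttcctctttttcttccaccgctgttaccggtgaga
Vegfb, chr19:6987652-6987901, minus strand: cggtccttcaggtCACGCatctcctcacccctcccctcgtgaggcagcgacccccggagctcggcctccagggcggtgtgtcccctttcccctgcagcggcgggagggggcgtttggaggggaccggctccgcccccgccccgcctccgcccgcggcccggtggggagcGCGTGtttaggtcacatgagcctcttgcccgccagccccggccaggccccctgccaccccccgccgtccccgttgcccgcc
Hif1a, chr12:73907617-73907866, plus strand: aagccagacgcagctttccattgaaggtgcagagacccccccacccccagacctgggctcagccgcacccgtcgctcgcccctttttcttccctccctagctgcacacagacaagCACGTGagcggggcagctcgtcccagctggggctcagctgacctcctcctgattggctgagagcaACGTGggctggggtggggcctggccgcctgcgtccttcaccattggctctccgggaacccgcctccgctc
The Vegfa window held no match. Bases further upstream or past the start were not searched for any gene, so this does not show that Vegfa lacks a HIF core elsewhere. The Vegfb window held 2, starting at positions -237 and -81 from the start site. The Hif1a window held 3, at -135, -134 and -70, of which the first pair overlap in a palindrome. No annotated exon or UTR overlapped any of these windows, and the Hif1a window lies within the spans of Hif1a itself and of Gm15283 on the other strand. RefSeq windows were at hand for 6 of the 10 genes, and 4 of the 6 held a core match. Among all 27025 mouse promoter windows of this length, 38.6% held at least 1 match to either core (16.5% to ACGTG and 28.3% to GCGTG). A match in these letters is a description and not a binding site.

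Across the 10 genes, the study compared eWAT of cachectic with control mice. Angpt1 and Pdgfa fell and Pdgfb and Epas1 rose in cachectic eWAT by edgeR's quasi-likelihood test (Benjamini-Hochberg adjusted p under 0.05 over 16003 genes). Angpt1 fell 1.72 on the log2 scale and Pdgfa 1.04, while Pdgfb and Epas1 rose 0.69 and 0.71. Vegfa had the highest log2 fold change of the 10 (1.51, or 2.85-fold) but did not pass the test. All 10 genes passed the low-count filter, and 4 of 10 (40%) were called, against 17.6% of all tested genes. By direction, 2 of 10 were higher (9.0% of all tested genes) and 2 were lower (8.63%). The libraries of the 2 groups did not overlap in CPM for 6 of the 10 genes (60%, against 40.5% of all tested genes), with 3 higher (20.4%) and 3 lower (20.1%) in cachexia. The median log2 fold change of the 10 genes was -0.23, against -0.0031 over all tested genes. Without control replicate 1, and likewise without control replicate 2 or 3, 2 of the 10 were called, both of them lower and none higher, and without cachexia replicate 3 the count was 3. Calls over all genes also became fewer with a library left out, at 828 to 2339 against 2821 with all 6 libraries. Together the 10 genes took between 0.1084% and 0.1246% of the counts in control libraries and between 0.1452% and 0.2635% in cachexia libraries. Vegfa and Epas1 held the most counts in both groups.

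**Figure D1:**
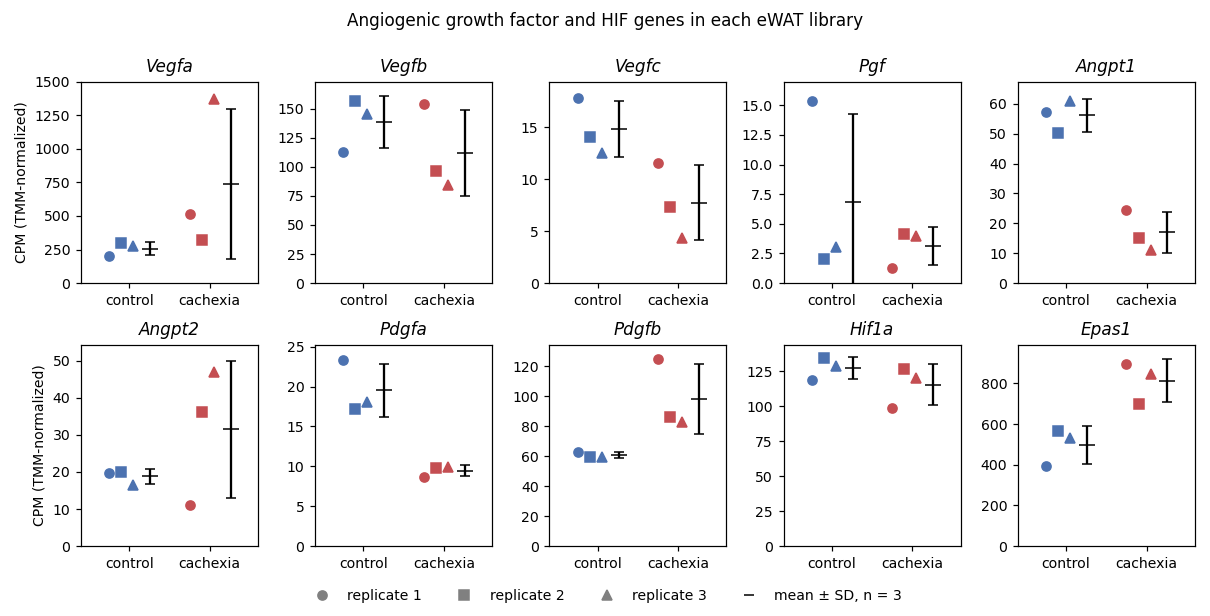
Level of each of the 10 genes in CPM (y axis, linear and starting at 0) in the 3 control (blue) and 3 cachexia (red) libraries, with symbols for replicates 1 to 3 and black bars for the mean ± SD (n = 3). Vegfa, Pdgfb and Epas1 are higher in each cachexia library than in any control library, Vegfc, Angpt1 and Pdgfa are lower, and the lower arm of the Pgf control bar runs below 0 and is not drawn.

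Among the VEGF ligands, Vegfa was the most variable in cachexia. Its control level was 200.1, 297.8 and 275.2 CPM (values are given here and below in the order of replicates 1, 2 and 3), and its cachexia level was 514.9, 321.7 and 1370 CPM. Each cachexia library was above each control library, cachexia replicate 2 only slightly so and cachexia replicate 3 by far. The mean was 258 ± 51.1 CPM in control and 736 ± 558 CPM in cachexia (SD, n = 3), a log2 fold change of 1.51 ± 0.49 (SE) with an adjusted p of 0.0713 by edgeR, and the two-sided exact permutation p was 0.1, the smallest that 3 against 3 allow. Without cachexia replicate 3 the log2 fold change was 0.70 (adjusted p = 0.1225), and without cachexia replicate 2 it was 1.87 (adjusted p = 0.032). Vegfa passed the threshold in 3 of the 15 other settings, namely DESeq2 (adjusted p = 0.0048), no low-count filter (adjusted p = 0.0365) and the set without cachexia replicate 2.

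Vegfb, whose product binds FLT1 alone among the VEGF receptors, was at 113, 156 and 145 CPM in control and at 154, 96.5 and 84.8 CPM in cachexia. Cachexia replicate 1 lay among the controls and the other cachexia libraries below them, so the groups overlapped. Its log2 fold change was -0.31 ± 0.24 (adjusted p = 0.4076).
Vegfc, the lymphatic growth factor, was at 17.8, 14.0 and 12.6 CPM in control and at 11.6, 7.37 and 4.33 CPM in cachexia, each cachexia library below each control. Its log2 fold change was -0.93 ± 0.34, which did not pass the test (edgeR, adjusted p = 0.0985), although it did without cachexia replicate 1 (-1.34, adjusted p = 0.0395) and with DESeq2 (adjusted p = 0.0449).
Pgf, placental growth factor, was the lowest of the 10 genes. It had 307 counts (15.4 CPM) in control replicate 1 but 36 and 54 counts (2.06 and 3.06 CPM) in control replicates 2 and 3, against 1.28, 4.11 and 4.0 CPM in cachexia. The groups overlapped, and the log2 fold change was -1.13 ± 0.78 (adjusted p = 0.347) with all libraries but 0.28 (adjusted p = 0.753) without control replicate 1, so its direction rests on that library.

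The remaining ligands of these families, the 4 genes Vegfd, Pdgfc, Pdgfd and Angpt4, had 3 lower and none higher, with a median log2 fold change of -1.16. That is 75% lower, against 8.63% of all tested genes. Vegfd, a second lymphatic growth factor, fell from 57.2 ± 5.61 to 24.8 ± 1.98 CPM (log2 fold change -1.21 ± 0.13, adjusted p = 0.0025 by edgeR) and was called in all 15 other settings. Its libraries ranged from 51.1 to 62.2 CPM in control and from 22.9 to 26.8 CPM in cachexia, with a wide gap between the groups. Pdgfc, a further PDGFRA ligand, fell from 39.2 ± 2.61 to 18.1 ± 7.03 CPM (-1.11 ± 0.26, adjusted p = 0.0270), a call lost without control replicate 2 or 3 or cachexia replicate 2 (adjusted p = 0.0727 to 0.0875). Angpt4, a TEK ligand, had 846, 69 and 155 counts in control and 17, 26 and 1 in cachexia. Its log2 fold change was -4.36 ± 1.07 (adjusted p = 0.0299) and -2.83 (adjusted p = 0.060) without control replicate 1, which was far above the other controls, and leaving out any other library except control replicate 2 also lost the call (adjusted p = 0.0580 to 0.0861), as did limma-voom and log2(FPKM + 1). Pdgfd, a PDGFRB ligand, was at 19.9 ± 2.03 CPM in control and 24.6 ± 2.89 CPM in cachexia, with overlapping groups (0.31 ± 0.15, adjusted p = 0.195).

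Of the 9 receptors, 1 rose and none fell, with a median log2 fold change of 0.25. This share of 11.1% was near the 9.0% of all tested genes that rose. Flt1, the receptor shared by VEGFA, VEGFB and PGF and also a decoy for VEGFA, was at 129, 194 and 167 CPM in control and at 414, 329 and 389 CPM in cachexia, with no overlap. It rose 2.32-fold (log2 fold change 1.21 ± 0.19, adjusted p = 0.00724 by edgeR), and it was called in all 15 other settings.
Kdr, the main signaling receptor for VEGFA, was at 269 ± 34.0 CPM in control and 320 ± 46.2 CPM in cachexia (0.25 ± 0.17, adjusted p = 0.343). The difference between the changes of Flt1 and Kdr was not tested. Flt4, the VEGFC receptor, was at 37.7 ± 9.09 and 41.1 ± 16.6 CPM. The co-receptors Nrp1 (183 ± 38.1 and 223 ± 50.9 CPM) and Nrp2 (89.1 ± 2.13 and 101 ± 60.7 CPM) had overlapping groups as well, and the cachexia levels of Nrp2 ran from 49.6 to 168 CPM.

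Angpt1, the stabilizing ligand of TEK, had the smallest adjusted p of the 10 genes. It was at 57.4, 50.1 and 60.9 CPM in control and at 24.6, 15.2 and 11.2 CPM in cachexia. All cachexia libraries were well below all controls, and the highest of them was under the lowest control by a wide margin. The mean fell from 56.1 ± 5.52 to 17.0 ± 6.85 CPM (log2 fold change -1.72 ± 0.27, adjusted p = 0.00697 by edgeR). It was called in all 15 other settings and lay between -2.08 and -1.49 with any library left out.
Angpt2, its antagonist, was at 19.8, 20 and 16.6 CPM in control and at 11.2, 36.2 and 47.0 CPM in cachexia. Cachexia replicate 1 was below the controls while the other cachexia libraries were above them, so the groups overlapped. The log2 fold change of 0.74 ± 0.44 did not pass the test (edgeR, adjusted p = 0.272), but without cachexia replicate 1 it was 1.15 (adjusted p = 0.0138). Mcph1, which overlaps Angpt2 on the other strand, had a log2 fold change of -0.26 (adjusted p = 0.515).
The receptor Tek had 91.9 ± 8.48 CPM in control and 130 ± 41.8 CPM in cachexia (0.50 ± 0.23, adjusted p = 0.172), with cachexia replicate 3 among the controls. Tie1, the companion receptor of TEK, had 132 ± 14.3 and 213 ± 66.5 CPM without overlap (0.69 ± 0.22, adjusted p = 0.0703). Without cachexia replicate 3, Tek (0.73, adjusted p = 0.0291) and Tie1 (0.85, adjusted p = 0.0474) passed the threshold.

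Pdgfa and Pdgfb moved in opposite directions. Pdgfa was at 23.3, 17.1 and 18.1 CPM in control and at 8.69, 9.83 and 9.90 CPM in cachexia. The cachexia libraries were close to each other and all under the lowest control, while control replicate 1 was the highest. The mean fell from 19.5 ± 3.34 to 9.47 ± 0.68 CPM (log2 fold change -1.04 ± 0.18, adjusted p = 0.00936 by edgeR), and the call held in all 15 other settings, -0.90 (adjusted p = 0.0211) without control replicate 1 included. The overlapping gene 6330403L08Rik had a log2 fold change of -0.74 ± 0.27 (adjusted p = 0.0962), and its part in the Pdgfa value was not tested.
Pdgfb was at 63.0, 59.6 and 59.5 CPM in control and at 125, 86.2 and 82.6 CPM in cachexia. The controls were nearly equal, each cachexia library was above them, and cachexia replicate 1 was the highest. The mean rose from 60.7 ± 2.00 to 97.8 ± 23.4 CPM (log2 fold change 0.69 ± 0.18, adjusted p = 0.0334 by edgeR). Of 15 other settings 11 kept the call. It was lost without cachexia replicate 1 (0.47, adjusted p = 0.0572) and without control replicate 1 (0.72, adjusted p = 0.0649), 2 (0.68, adjusted p = 0.106) or 3 (0.67, adjusted p = 0.123).
Pdgfra, the receptor for PDGFA on fibroblasts and adipocyte progenitors, was at 130 ± 15.4 CPM in control and 77.3 ± 23.8 CPM in cachexia without overlap (-0.75 ± 0.22, adjusted p = 0.0518). It passed the threshold in 6 of 15 other settings, with all libraries under DESeq2, no low-count filter, at least 10 counts in every library, limma-voom and log2(FPKM + 0.1), and without cachexia replicate 1 (-1.03, adjusted p = 0.0150). Pdgfrb, the pericyte receptor, was at 130 ± 4.66 and 139 ± 40.8 CPM (0.10 ± 0.20, adjusted p = 0.779).

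Of the HIF genes, Epas1 rose and Hif1a did not pass the test. Hif1a was at 119, 135 and 128 CPM in control and at 98.7, 127 and 120.0 CPM in cachexia. The groups overlapped, with cachexia replicate 1 lowest of the 6 libraries. Its log2 fold change was -0.15 ± 0.14 (edgeR, adjusted p = 0.505), and it stayed between -0.22 and -0.05 with any library left out.
Epas1, which encodes HIF-2α and is abundant in endothelium, was at 391.9, 567.5 and 530.7 CPM in control and at 897.1, 697.2 and 845.3 CPM in cachexia. Each cachexia library exceeded each control. The mean rose from 497 ± 92.6 to 813 ± 104 CPM (log2 fold change 0.71 ± 0.20, adjusted p = 0.0483 by edgeR), just inside the threshold, and 7 of the 15 other settings kept the call. Among the losses were no low-count filter (adjusted p = 0.0718) and each set with a library left out. Leaving out a single library gave a log2 fold change between 0.57 (without control replicate 1, adjusted p = 0.0995) and 0.82 (without control replicate 2, adjusted p = 0.0922). The call was likewise lost without cachexia replicate 1 (0.63, adjusted p = 0.123), cachexia replicate 2 (0.81, adjusted p = 0.0509), cachexia replicate 3 (0.69, adjusted p = 0.0891) or control replicate 3 (0.76, adjusted p = 0.137).

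**Figure D2:**
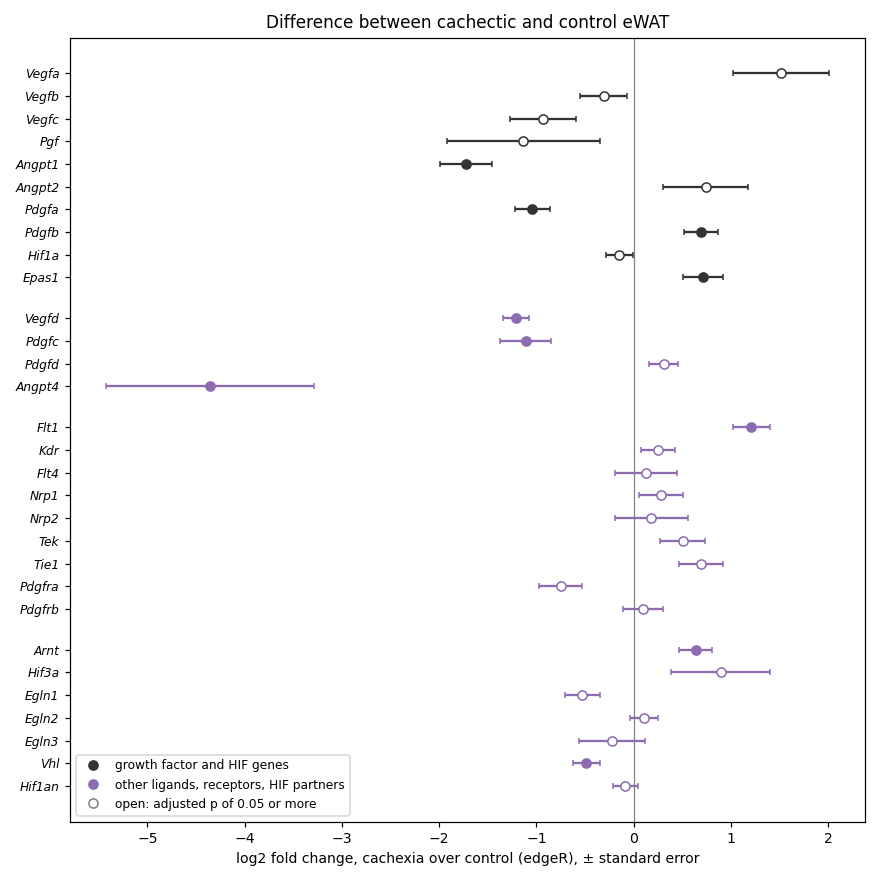
Log2 fold change of cachexia over control (x axis, edgeR, ± standard error, 3 libraries per group) of the 10 genes (black) and, in purple, of the other ligands, the receptors and the HIF partners, with filled points for an adjusted p under 0.05. Filled points among the 10 genes are Angpt1 and Pdgfa left of 0 and Pdgfb and Epas1 right of 0, and Vegfa at 1.51 is open.

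Of the HIF partners and regulators, 7 of 8 were tested, 1 rose and 1 fell, with a median log2 fold change of -0.09. The share called was 28.6%, against 17.6% of all tested genes. Arnt (HIF-1β), the shared partner subunit of HIF1A and EPAS1, rose from 88.8 ± 9.19 to 138 ± 26.1 CPM (0.64 ± 0.17, adjusted p = 0.0371 by edgeR). The call was kept in 9 of 15 other settings and was lost without control replicate 1 (adjusted p = 0.0901), 2 (0.0988) or 3 (0.104) and without cachexia replicate 1 (0.0598) or 3 (0.0581). Vhl, which marks HIF subunits for degradation, fell from 43.0 ± 4.92 to 30.7 ± 2.79 CPM (-0.49 ± 0.14, adjusted p = 0.0476), a call kept in 5 of 15 other settings. With all libraries it was lost with library totals, no low-count filter or limma-voom, and it was lost with any single library left out (adjusted p = 0.0509 to 0.124). Among the prolyl hydroxylases, which tag HIF subunits in the presence of oxygen, Egln1 had a log2 fold change of -0.53 ± 0.18 (adjusted p = 0.0797), Egln2 of 0.11 (adjusted p = 0.627) and Egln3 of -0.22 (adjusted p = 0.690). Hif3a was at 5.41 ± 1.76 and 10.1 ± 5.85 CPM (0.90 ± 0.51, adjusted p = 0.254), and it passed without cachexia replicate 1 (1.31, adjusted p = 0.0436). Hif1an, the asparagine hydroxylase of HIF, had a log2 fold change of -0.09 (adjusted p = 0.678). Arnt2 had too few counts to be tested, with 110 of its 134 counts in control replicate 1.

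The HIF target genes did not move one way. Of 20 tested genes of 22 listed, 5 rose and 4 fell, with a median log2 fold change of 0.09. The share called was 45%, against 17.6% of all tested genes. Ddit4, a hypoxia- and stress-induced inhibitor of mTORC1, was at 46.2, 26.3 and 22.6 CPM in control and at 157, 289 and 309 CPM in cachexia, an increase of 7.93-fold (log2 fold change 2.99 ± 0.36, adjusted p = 0.00306 by edgeR). The mitophagy receptors Bnip3 (284 ± 9.81 to 628 ± 98.9 CPM, 1.15 ± 0.17, adjusted p = 0.00600) and Bnip3l (158 ± 14.0 to 282 ± 1.62 CPM, 0.84 ± 0.13, adjusted p = 0.00763) rose as well, and all of these held their calls in the 15 other settings. P4ha2, a collagen prolyl hydroxylase subunit, fell from 22.6 ± 1.48 to 13.5 ± 1.88 CPM (-0.75 ± 0.16, adjusted p = 0.0182), lost without control replicate 2 (adjusted p = 0.0752) or 3 (0.0658) or cachexia replicate 1 (0.0508). Pfkfb4, a regulator of glycolysis, fell from 16.5 ± 0.946 to 9.11 ± 1.57 CPM (-0.86 ± 0.18, adjusted p = 0.0199), lost without control replicate 2 (0.0615) or 3 (0.0805). The carbonic anhydrase gene Car12 was called lower (adjusted p = 0.0197) on 65, 11 and 18 counts in control and 1, 0 and 2 in cachexia, lost without control replicate 3 (0.0501) or cachexia replicate 1 (0.0638) or 2 (0.0528) and with either FPKM pseudocount. Car9 and Ankrd37 had too few counts to be tested.

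Levels of different genes were compared per length, as CPM per kb of gene length. In control libraries Epas1 was highest (mean 93.6 CPM per kb), followed by Vegfb (86.2), whose range overlapped that of Epas1, then Vegfa (60.1), Hif1a (21.6), Pdgfb (14.6) and Angpt1 (10.8), each without overlap with the next. Pdgfa (6.26), Vegfc (6.05), Angpt2 (5.09) and Pgf (2.36) each overlapped their neighbor. In cachexia libraries Vegfa was first (172 CPM per kb), overlapping Epas1 (153), and Vegfb (69.6) followed. Pdgfb (23.5) and Hif1a (19.5) overlapped each other, and so in turn did Angpt2 (8.53), Angpt1 (3.27), Vegfc (3.16) and Pdgfa (3.04), with Pgf (1.08) below them all. By these means, Angpt2 was below Angpt1 in the control order and above it in the cachexia order, and Vegfb was above Vegfa in control and below it in cachexia. In cachexia replicate 1, however, Angpt2 (3.035 CPM per kb) was still below Angpt1 (4.717).

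Ratios of related genes within a library do not depend on the scaling of libraries. For 4 such ratios, taken per length, each cachexia library was above each control library, so each had an exact two-sided permutation p of 0.1, the smallest possible, and an adjusted p of 0.1 over the 4. Since Pdgfb was higher and Pdgfa lower in each cachexia library, their ratio had to separate. Angpt1, Vegfa and Epas1 had also separated on their own in the direction of their ratios. The ratios are therefore no independent support. The ratio of Angpt2 to Angpt1 was 0.486, 0.564 and 0.385 in control and 0.644, 3.35 and 5.90 in cachexia. Cachexia replicate 1 was only just above the controls, and the log2 difference was 2.31 ± 0.97 (SE), or 4.94-fold, between 1.64 (without cachexia replicate 3) and 3.24 (without cachexia replicate 1).
The ratio of Vegfa to Vegfb was 0.662, 0.713 and 0.709 in control and 1.25, 1.25 and 6.05 in cachexia, so Vegfb was the higher of the pair in all control libraries and Vegfa in all cachexia libraries. The log2 difference of 1.61 ± 0.76 was 0.85 without cachexia replicate 3.
The ratio of Pdgfb to Pdgfa was 2.02, 2.60 and 2.47 in control and 10.7, 6.56 and 6.24 in cachexia. Its log2 difference of 1.69 ± 0.27 ranged from 1.44 to 1.84 with any library left out.
The ratio of Epas1 to Hif1a was 3.66, 4.68 and 4.59 in control and 10.1, 6.12 and 7.82 in cachexia, a log2 difference of 0.87 ± 0.24, or 1.83-fold. Both of these ratios differed with a smaller spread than the angiopoietin and VEGF ratios.

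**Figure D3:**
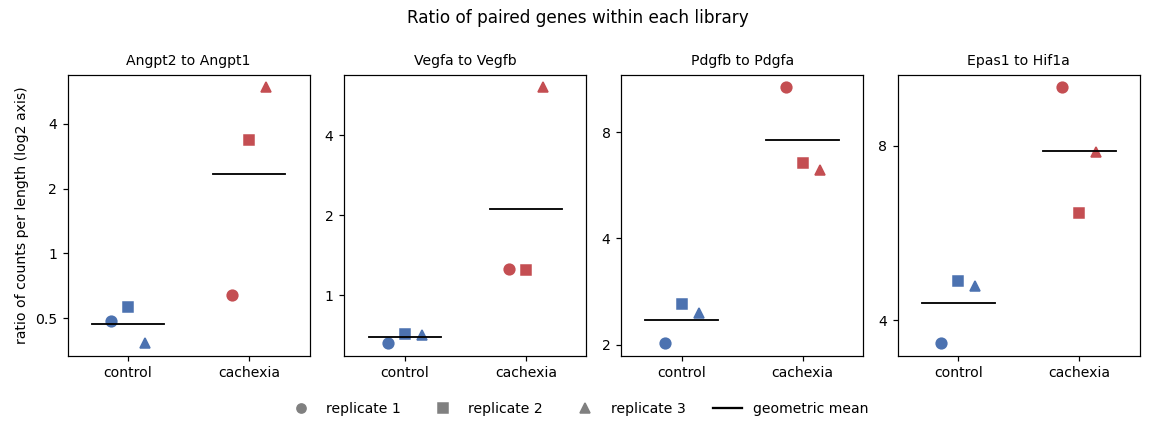
Ratio of 4 pairs of related genes within each library, from counts per length (y axis, log2 scale), for control (blue) and cachexia (red), with symbols for replicates 1 to 3 and a line at the geometric mean. All red points lie above all blue points in each panel, with cachexia replicate 1 closest to the controls for Angpt2 to Angpt1 (0.644) and cachexia replicate 3 highest for Vegfa to Vegfb (6.05).

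Markers of vessel cells are given beside these genes. Of 15 endothelial markers, 10 rose, against 9.0% of all tested genes, and none fell (median log2 fold change 0.76), and their summed level was 2209 to 2381 CPM in control and 3478 to 4993 CPM in cachexia. Pecam1, an endothelial adhesion molecule, rose from 355 ± 10.1 to 793 ± 251 CPM (adjusted p = 0.0170 by edgeR, lost without control replicate 2 at 0.0667 or 3 at 0.0805). Cdh5, the endothelial cadherin, rose from 374 ± 3.03 to 623 ± 147 CPM (adjusted p = 0.0426), a call kept in 8 of 15 other settings, lost with no low-count filter and lost without any library except cachexia replicate 3 (adjusted p = 0.0837 to 0.145). Of 10 mural cell markers, 1 fell, a share of 10% near the 8.63% of all tested genes, and none rose (median -0.46). It was Rgs5, a pericyte marker, which fell from 518 ± 16.9 to 274 ± 77.1 CPM (adjusted p = 0.0308 by edgeR, kept in 11 of 15 other settings and lost without any 1 control, at 0.0627 to 0.102). The mural markers summed to 1595 to 1793 CPM in control and 859 to 1452 CPM in cachexia. None of 5 lymphatic endothelial markers was called (median -0.61), and their sum was 142 to 230 CPM in control and 78.4 to 167 CPM in cachexia.

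Set against the summed endothelial markers of the same library, a scale chosen after the values were seen, Pdgfb was at 26.5, 25.8 and 26.9 per 1000 in control and at 28.5, 17.3 and 23.8 in cachexia, so the groups overlapped (log2 difference -0.22). Epas1 (-0.16), Angpt2 (-0.37), Vegfa (0.38) and Flt1 (0.34) also overlapped on this scale. Angpt1 (-2.68), Vegfc (-1.91), Pdgfa (-1.91), Vegfb (-1.23) and Hif1a (-1.03) were lower in each cachexia library than in each control. The endothelial sum was itself higher in each cachexia library, which lowers any gene on this scale. In CPM the groups overlapped for Vegfb and Hif1a, so their separation here rests on the divisor. Pdgfb and Epas1, which rose per library, thus had no separation of the groups per endothelial marker. The cells that the RNA of these genes came from were not tested.
The 10 adipocyte markers summed to 26310 to 33930 CPM in control and 29770 to 45860 CPM in cachexia. Of these markers, 2 rose (20%, against 9.0% of all tested genes) and none fell. Set against their sum, Vegfa (0.94) and Epas1 (0.40) were higher in each cachexia library. Angpt1 (-2.12), Vegfc (-1.36), Pdgfa (-1.36) and Vegfb (-0.67) were lower in each on that scale. The groups overlapped on it for Pdgfb (0.34), Angpt2 (0.19), Hif1a (-0.48) and Pgf (-1.06). The adipocyte scale was likewise chosen after the values were seen.

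**Figure D4:**
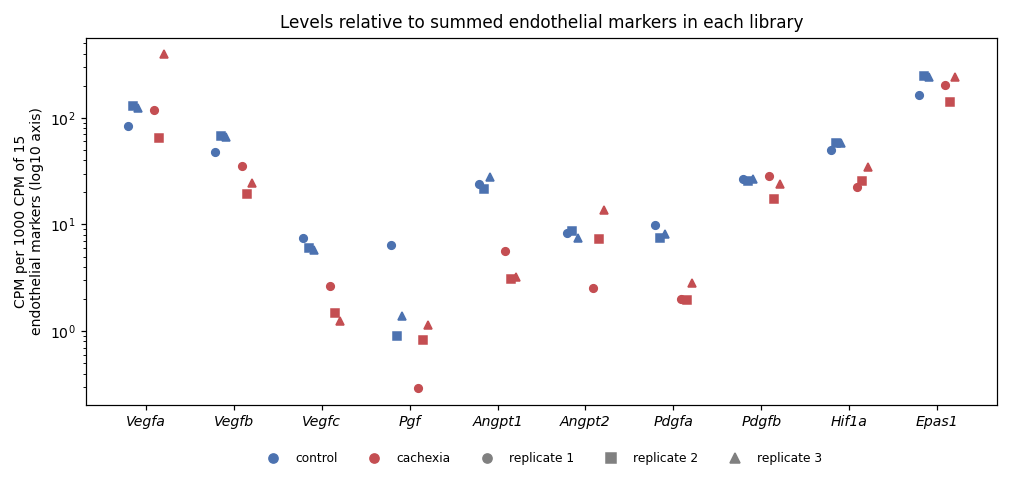
CPM of each of the 10 genes per 1000 CPM of the summed 15 endothelial markers (y axis, log10 scale) in each control (blue) and cachexia (red) library, with symbols for replicates 1 to 3. The groups overlap for Vegfa, Pgf, Angpt2, Pdgfb and Epas1, and the cachexia points lie below the controls for Vegfb, Vegfc, Angpt1, Pdgfa and Hif1a.

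Progenitor and fibroblast markers, whose cells express Pdgfra, had 4 of 8 lower and 1 higher (median -0.92), and their sum was 5238 to 6059 CPM in control and 2433 to 3349 CPM in cachexia. Col3a1, a fibrillar collagen, fell from 2475 ± 309 to 272 ± 115 CPM (-3.18 ± 0.34, adjusted p = 0.00212 by edgeR), while Dcn, decorin, was at 2058 ± 186 and 1976 ± 342 CPM (-0.06, adjusted p = 0.873). Neutrophil markers had 9 of 10 tested higher (median 5.10), with sums of 32.4 to 49.8 CPM in control and 289.9, 258.8 and 819.0 CPM in cachexia replicates 1, 2 and 3. S100a8, an abundant neutrophil protein, was at 51.4, 48.2 and 186 CPM in cachexia. Cachexia replicate 3, with the highest neutrophil sum, also had the highest Vegfa, and the part of neutrophils in the Vegfa value was not tested. Platelet markers, from cells rich in PDGF, had 1 of 4 tested lower and none higher (median 1.18). Their sum was 55.4 to 59.2 CPM in control and 30.4 to 48.8 CPM in cachexia, with Gp1bb at 0 throughout. Pf4, the platelet factor 4 gene, fell from 53.5 ± 1.13 to 31.6 ± 10 CPM (adjusted p = 0.0484, kept in 8 of 15 other settings, lost with library totals and without any library except cachexia replicate 1, at 0.0785 to 0.128). Pf4 held most of the platelet sum. Itga2b, an integrin gene, went the other way, from 1.91 ± 0.45 to 4.15 ± 1.07 CPM without overlap (1.11 ± 0.35, edgeR, adjusted p = 0.0626). Of the 4 tested, 2 were higher and 1 lower in each cachexia library than in each control. Red cell markers had 6 of 6 tested higher (median 2.72, sums of 253 to 451 CPM and 1334 to 2856 CPM). Macrophage markers had 1 higher and 1 lower of 9 (median -0.17), and none of 5 mesothelial markers was called (median -0.23). The shares called were 62.5% of progenitor and fibroblast, 90% of neutrophil, 25% of platelet, 100% of red cell and 22.2% of macrophage markers. Over all tested genes the share was 17.6%.

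Among 12 other angiogenic factors, 5 fell (41.7%, against 8.63% of all tested genes) and none rose (median log2 fold change -0.69). Fgf2, basic fibroblast growth factor, fell from 76.2 ± 15.8 to 26.2 ± 5.6 CPM (-1.54 ± 0.21, adjusted p = 0.00443 by edgeR). It overlaps antisense genes, the most counted of which had 406 counts in all. Apln, apelin, the ligand of an endothelial receptor, was at 25.4, 17.9 and 22.9 CPM in control and at 2.39, 0.61 and 0.26 CPM in cachexia (-4.31 ± 0.61, adjusted p = 0.00504). Igf1 fell from 607 ± 58.8 to 267 ± 71.8 CPM (-1.19 ± 0.23, adjusted p = 0.0137, lost without control replicate 3 at 0.0624). Fgf2 and Apln held their calls with any library left out.
Among 8 inhibitors of angiogenesis, 2 rose and 1 fell (37.5% called, against 17.6% of all tested genes, median 0.18). Thbs1, thrombospondin 1, was at 39.5, 168 and 73.5 CPM in control and at 1459, 292 and 1201 CPM in cachexia (3.39 ± 0.71, adjusted p = 0.0183, kept in 13 of 15 other settings and lost without control replicate 3 at 0.0806). Thbs2, its close relative, rose from 26.0 ± 4.50 to 223 ± 130 CPM (3.10 ± 0.49, adjusted p = 0.00748). Serpinf1, which encodes PEDF, fell from 150 ± 43.1 to 54.7 ± 21.6 CPM (-1.46 ± 0.30, adjusted p = 0.0180), lost without control replicate 3 (0.0563), cachexia replicate 2 (0.0533) or cachexia replicate 3 (0.0528). In Thbs1 and Thbs2 cachexia replicate 2 was the lowest of the cachexia libraries, as it was in Vegfa.
Of 10 tip cell and Notch genes, 1 rose, a share of 10% near the 9.0% of all tested genes, and none fell (median -0.30). Notch4, an endothelial Notch receptor, rose from 67.9 ± 4.02 to 115 ± 18.2 CPM (0.77 ± 0.15, adjusted p = 0.0131, lost without control replicate 3 at 0.0745).

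With each library left out in turn, 9 of the 10 genes kept the sign of their log2 fold change, and Pgf did not. Vegfa moved the most among the genes that kept it, between 0.70 and 1.87. Angpt1 and Pdgfa kept both direction and call in each of the 6 sets.

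**Figure D5:**
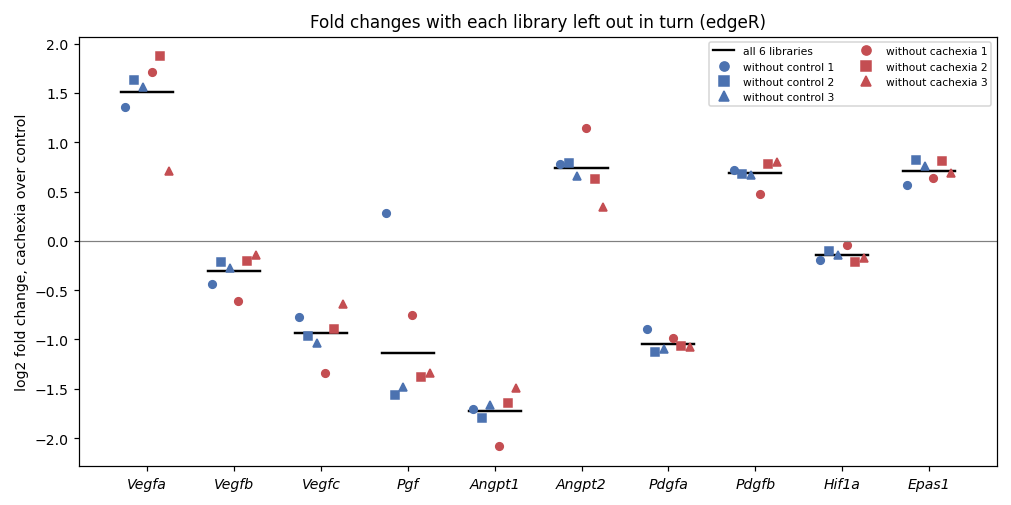
Log2 fold change of cachexia over control (y axis, edgeR) of the 10 genes with all 6 libraries (black line) and with each library left out in turn (points, blue for a control and red for a cachexia library). Pgf lies at 0.28 without control replicate 1 and below 0 otherwise, and Vegfa at 0.70 without cachexia replicate 3.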

How the data were processed

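RNA-seq of eWAT from 3 cachexia and 3 control libraries was analyzed, grouped by the labels. Per the methods, the authors made libraries with a NEBNext Ultra kit, filtered the reads for quality, mapped them by Hisat2 and obtained counts per gene from featureCounts (1.5.0-p3 in the submitters' processing notes). The deposited counts are raw. The deposited FPKM values, which the authors derived from count and gene length, served as an alternative only. The authors' table of log2 fold changes and p-values from DESeq2 (1.16.1) was not used, nor were its 6 per-sample and 2 mean columns. GENCODE M21 (GRCm38) holds 99.8% of the gene identifiers, with coordinates unchanged for 98.3% of them and for 9 of the 10 genes.

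Counts were normalized by TMM in edgeR 4.0.16 (R 4.3.3), filtered with filterByExpr and tested by quasi-likelihood without covariates, with Benjamini-Hochberg adjustment over 16003 genes (biological coefficient of variation 0.264). Single genes and ratios (pseudocount 0.5 counts) were compared by two-sided exact permutation tests in scipy 1.17.1. The 15 other settings were RLE factors, library totals, no filter, at least 10 counts in every library, a replicate block, DESeq2 1.42.0, limma-voom and limma 3.58.1 on log2 FPKM (pseudocount 1 or 0.1), and each library left out. No pair of libraries among 15 had near-identical counts.

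The 10 genes and all lists were chosen with earlier results of these data known. Named are the 10 genes, the other ligands, receptors and HIF regulators, the called genes with the smallest p in each direction of other pathway lists (up to 3), and the 2 most abundant genes of marker lists where reported.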

Additional observations from a re-analysis of the deposited data

How the results depend on the processing

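Over the 9 settings that kept all libraries, 4 to 6 of the 10 genes and 1881 to 3884 of all genes were called. With a library left out, the counts called were 828 to 2339 of all genes, 2 to 4 of the 10 (0 to 2 higher, 2 to 3 lower), 1 to 2 other ligands, 1 to 3 receptors, 0 to 1 HIF partners, 3 to 9 HIF targets, 2 to 5 other angiogenic factors, 1 to 4 inhibitors and 0 to 3 tip cell genes. These sets hold fewer libraries. Receptors called were 2 with no filter, at least 10 counts, limma-voom or log2(FPKM + 0.1), and 3 with DESeq2. HIF partners were 1 with library totals, no filter or limma-voom and 3 with DESeq2, other angiogenic factors 3 with limma-voom and 7 with no filter, and tip cell genes 2 with no filter or DESeq2. The cause of these moves was not tested. With a library left out, signs turned for Pgf (-1.56 to 0.28, positive without control replicate 1), Flt4 (-0.14 to 0.42, also -0.033), Nrp2 (-0.39 to 0.51), Pdgfrb (-0.17 to 0.23), Egln3 (-0.54 to 0.028), Hif1an (-0.14 to 0.0017), Lyve1 (-0.35 to 0.24), Fabp4 (-0.041 to 0.69) and Dcn (-0.18 to 0.072). Nrp2 also turned with log2(FPKM + 0.1) (-0.0068). Per endothelial marker, a scale chosen after seeing the data, signs turned for Angpt2 (-0.37), Pdgfb (-0.22) and Epas1 (-0.16). With a library left out or on FPKM, no gene was called under the setting that turned it. The endothelial scale had only the permutation test, whose smallest p is 0.1, so no call was possible there.

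With the replicate number as a block, 1 of the 10 genes was higher (Pdgfb) and 3 lower (Vegfc joined), HIF partners called were 0 and tip cell genes 2. Calls lost were Epas1 (adjusted p = 0.1084 by edgeR), Arnt (0.0508), Vhl (0.1055), Thbs1 (0.0636), Cdh5 (0.0872), Rgs5 (0.0505) and Pf4 (0.0502). Same-numbered libraries had correlations of deviations from the group means of -0.00314, -0.0113 and 0.00849. Differently numbered libraries had -0.0239 to 0.0226. The labels do not say whether the numbers pair the libraries, and with so few libraries these correlations cannot decide it.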
